A study of Mus musculus with 12 samples.

Results

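The 72 h fasted and the fed small intestine of the mouse were compared on 6 of the 12 arrays of the series, 3 labelled 72 h fasted and 3 labelled 0 h fed. All mice were males of the FVB strain at 6 weeks of age and the labels name no engineered allele or agent for any of them. The fed mice had chow and water without restriction, whereas chow was removed 72 h before death in the fasted mice, which were housed in metabolic cages and warmed by an infrared lamp from 24 h on, so that lamp and fasting cannot be told apart. Whole small intestine, epithelium and muscle together, of 2 mice was pooled for each array and its RNA labelled with Cy3, so n = 3 pools a group and the spread between single mice was not measured. On the same array, Cy5-labelled RNA of fed intestine served as reference, described as a pool of 6 fed mice. The labels of fed replicate 3 contradict each other: the reference source repeats the 2 mice whose RNA was the sample, but the protocol for its Cy5 labelling speaks of 6 pooled mice. For fed replicate 2 and 72 h replicates 1 and 2, the protocol for the Cy3 labelling names another pair of mice than the title and the sample source, and the pools are taken from the latter. The dyes were not swapped, so that a dye effect of a probe is part of every log ratio and cancels only in the difference between the groups. The other 6 arrays, of mice fasted for 12 h and 24 h, entered the fit for the spread and for the comparisons with those times.

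The small intestine absorbs nutrients across a sheet of enterocytes that is renewed from crypts every few days, and it is at the same time one of the largest immune organs of the body. Without food, circulating glucocorticoids and fatty acids rise, and tissues turn from glucose to fat and amino acids as fuel. Pyruvate dehydrogenase kinases then hold pyruvate back from oxidation, carnitine palmitoyltransferases bring fatty acids into mitochondria, and the respiratory chain burns the products. The comparison asked which genes, at the end of a long fast, stood above or below their level in the fed gut.

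The deposited intensities were used as scanned, with the background corrected and the 2 channels of all arrays brought to a common distribution. A log ratio below is log2(Cy3/Cy5), the level of a gene in a pool relative to fed intestine, and a difference is the mean log ratio of the 72 h pools minus that of the fed pools, so that 1 stands for a doubling. A gene was called higher or lower at an adjusted p under 0.05 (limma, Benjamini-Hochberg adjustment over all probes). Levels of different genes are not compared, because each probe has a brightness of its own. In whole tissue, fewer cells of a type and less RNA per cell cannot be told apart.

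The arrays were uneven in 2 respects. The 3 arrays at 72 h correlated with each other at 0.805 to 0.849 over all probes and fed replicates 1 and 2 at 0.785. Fed replicate 3 correlated with fed replicates 1 and 2 at 0.23 and 0.205. With the 72 h arrays, fed replicate 1 correlated at 0.2 to 0.327, fed replicate 2 at 0.345 to 0.483 and fed replicate 3 at -0.05 to -0.02. Values without fed replicate 3 stand beside results that it decides. The share of probes whose Cy3 signal stood well above background was 58.8% to 68.8% on the fed arrays and 85.7% to 98.4% on the 72 h arrays, and 96 of the probes called higher were not well above background on any fed array. As a check of the labelled tissue, the Cy3 signal of all 11 enterocyte markers measured was well above background on each of the 6 arrays, as was that of 73.2% of the 8031 genes with a symbol. The Cy5 reference, which should not follow the Cy3 sample, gave 0 probes that differed between the 72 h and fed arrays by limma, with 870 at an unadjusted p under 0.05. The limma fit of these 6 arrays alone also called 0, but 4100 were at an unadjusted p under 0.05. The reference was thus not shown to be equal between the groups, and it enters every log ratio. The Cy5 value of several genes with a large rise in Cy3 was higher on the 72 h arrays, by 1.24 (log2) for Pck1, 0.88 for Pdk4 and 0.83 for Pmaip1, which makes their log ratios smaller than the Cy3 differences of 3.53, 3.11 and 3.48.

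Of 20272 probes tested, 974 (4.80%) were higher and 1176 (5.80%) lower after 72 h of fasting. In Cy3 alone, 578 of the 974 and 654 of the 1176 were called in the same direction. At the level of genes with a symbol, each taken at its brightest probe, 464 of 8031 (5.78%) were higher and 881 (11.0%) lower. A change of at least 4-fold was a rise for 83 probes and a fall for 11, although the deepest changes were falls. Without fed replicate 3, 484 probes were higher and 636 lower, and 61 of the 83 and 10 of the 11 were still called. The counts were 354 and 478 without 72 h replicate 1, 555 and 705 without fed replicate 1, 621 and 738 without 72 h replicate 2, 617 and 840 without 72 h replicate 3, and 773 and 1019 without fed replicate 2. The share of calls that were lower was 54.7%, and 68.3% when the arrays were centred on their medians and not made equal in distribution. The pools did not overlap between the groups for all 974 probes called higher and 1175 of the 1176 called lower. With 3 pools against 3, a call nearly requires this, so it adds no support of its own, here or for the single called genes below. The share without overlap over all probes was not counted. Calls were more frequent among bright genes, as the plot of differences against intensity shows. Among the 2008 dimmest genes 1.59% were higher and 1.69% lower, against 11.7% and 22.9% among the 2008 brightest, called the bright genes below, where the median difference was -0.22. The shares of lower genes in the lists below stand against both backgrounds, and for lists rich in bright genes their number is given.

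**Figure D1:**
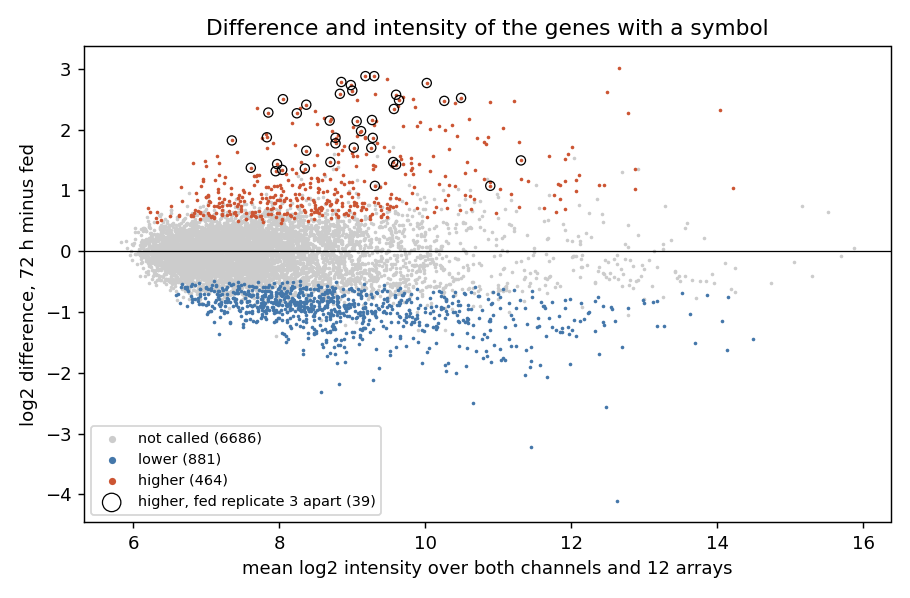
Difference between 72 h and fed (log2, vertical axis) of the 8031 genes with a symbol against the mean log2 intensity of their probe over both channels and 12 arrays (horizontal axis), with the 464 genes called higher in orange, the 881 called lower in blue and the others in grey. Calls are sparse at the dim end on the left, and the 39 ringed genes are those called higher whose fed replicate 3 lay over 1 log2 unit below both other fed arrays, all with a difference above 1.

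The 3 deepest falls were those of S100g, Jchain and Ada. S100g, the calcium-binding protein calbindin-D9k that carries calcium through enterocytes, had log ratios of 0.32, -0.16 and -0.30 in the fed pools and -4.42, -4.16 and -3.87 in the 72 h pools. No 72 h pool came near a fed pool, and the difference was -4.10 ± 0.20 (SE, n = 3 and 3, 17.2-fold lower than fed, adjusted p = 1.02e-07). Jchain, which joins immunoglobulin A into the form that plasma cells hand to the epithelium, was at -0.28, -0.57 and 0.03 in the fed pools and -3.76, -3.26 and -3.46 in the 72 h pools, -3.22 ± 0.24 (SE, n = 3 and 3, 9.31-fold lower than fed, adjusted p = 4.96e-06). Ada, the adenosine deaminase of the absorptive epithelium, was at 0.44, 0.55 and 0.14 in the fed pools and -2.27, -2.25 and -2.03 in the 72 h pools, -2.56 ± 0.17 (SE, n = 3 and 3, 5.9-fold lower than fed, adjusted p = 2.93e-06). These 3 falls were called without each of the 6 arrays in turn and in Cy3 alone.

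Below them came Akr1c14, a steroid-reducing enzyme (-2.32 ± 0.26, adjusted p = 0.000171), Nudt5, which hydrolyses ADP-ribose (-2.18 ± 0.24, 0.000159), and the iron exporter Slc40a1 (-2.11 ± 0.20, 9.98e-05). Further among the 15 largest falls were the proteasome activator Psme2, the dynein light chain Dynll1, Casp1 and its adaptor Pycard, the ornithine aminotransferase Oat, the cyclin Ccng2 and the carnitine palmitoyltransferase Cpt2, with differences from -2.04 to -1.84. All of these were called without each array in turn. Tafa5 (-1.85 ± 0.21) and Zfand5 (-1.84 ± 0.20) complete the 15, but a second probe of Tafa5 was higher (0.54, adjusted p = 0.0353) and one of Zfand5 was not called (0.11, adjusted p = 0.762).

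The largest rises differed in their pattern over the arrays. Pmaip1, which encodes the p53-induced death activator Noxa, was at -0.17, -0.21 and 0.36 in the fed pools and 3.12, 2.80 and 2.57 in the 72 h pools, and Pim3, a survival kinase, at -0.06, -0.24 and -0.16 in the fed pools and 2.54, 2.43 and 2.03 in the 72 h pools. The groups lay far apart, and the differences were 2.84 ± 0.21 (SE, n = 3 and 3, 7.14-fold higher than fed, adjusted p = 4.96e-06) for Pmaip1 and 2.49 ± 0.24 (SE, n = 3 and 3, 5.61-fold higher than fed, adjusted p = 7.93e-05) for Pim3. Hpn, a serine protease of the cell surface, was at -0.72, -0.28 and -1.18 in the fed pools and 2.53, 2.71 and 1.65 in the 72 h pools and had the largest rise, 3.02 ± 0.51 (SE, n = 3 and 3, 8.13-fold higher than fed, adjusted p = 0.00202).

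In contrast, Arid1a, Ctps2, Grem1, Atm, Mrps25, Kcnh1, Itgb7 and Neurog1, genes with no common function, shared a profile in which fed replicate 3 was the lowest of the fed pools and 72 h replicate 2 the lowest of the 72 h pools. Atm, the kinase that senses DNA breaks, may stand for them, with 0.37, 0.78 and -1.30 in the fed pools and 2.87, 2.07 and 3.11 in the 72 h pools and a difference of 2.74 ± 0.53. Among the probes called higher, 57 had fed replicate 3 over 1 log2 unit below both other fed arrays, and 30 of the 83 rises of at least 4-fold were among them. Of those called lower 0 did, but a fed value that low pulls the fed mean down. A call as lower is thus hardly open to such a probe, and the 0 is no contrast. Genes not called, such as Taldo1 and Mgst3, had the pattern too, and its share over all probes was not counted. The limit of 1 log2 unit was chosen after the values were seen. Leaving out fed replicate 3, Arid1a (adjusted p = 0.0887), Grem1 (0.0876), Kcnh1 (0.0726) and Neurog1 (0.0562) were no longer called, while Atm, Ctps2, Mrps25 and Itgb7 were. Second probes went against Mrps25 (-0.61, adjusted p = 0.0134, lower) and did not bear out Ctps2 (-0.21, adjusted p = 0.527) or Ramp2 (0.28, adjusted p = 0.566), whereas both probes of the elongation factor Eef2 were called higher. Fkbp11 and Ikbkg, the regulatory subunit of the IκB kinase, also had fed replicate 3 far below the others, at -1.73 and -1.02, against 0.94 and 1.99 for Fkbp11 and 0.79 and 2.01 for Ikbkg. These rises rest on fed values that disagree, and the part of the array in them was not tested.

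**Figure D2:**
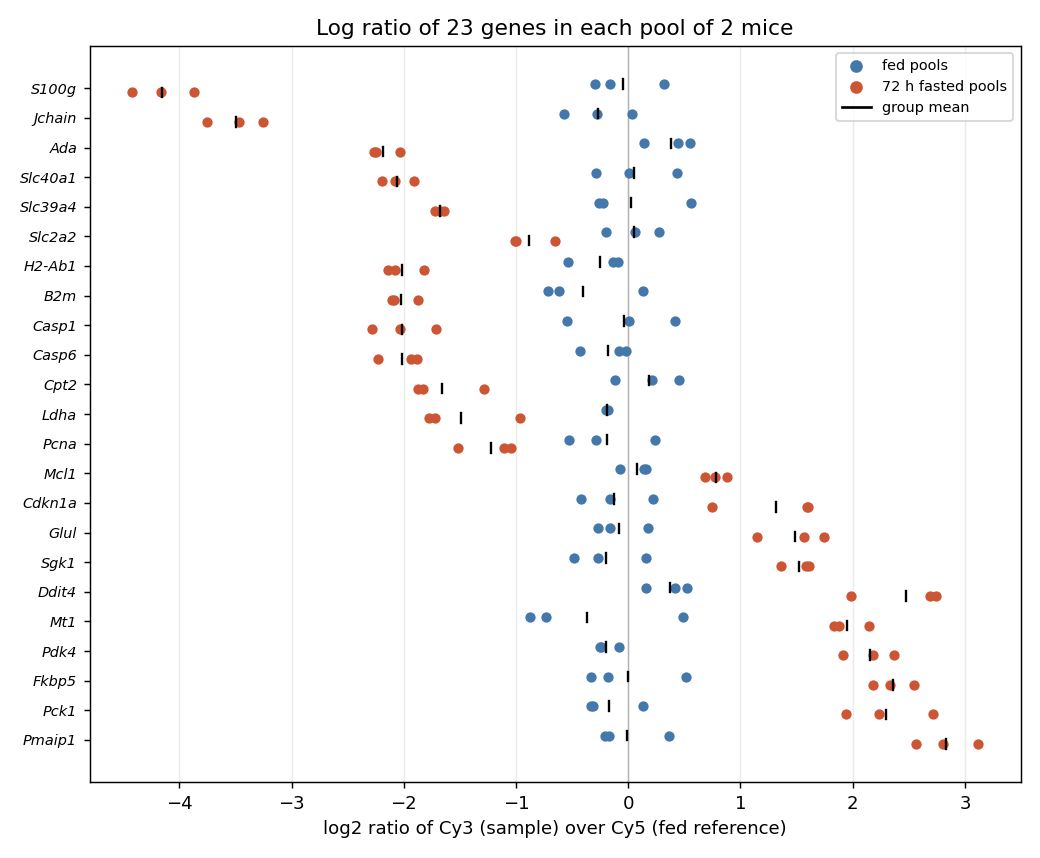
Log2 ratio of Cy3 over Cy5 (horizontal axis) of 23 genes in each pool of 2 mice, with fed pools in blue, 72 h fasted pools in orange and the group mean as a black tick. The genes shown were picked among those called. The orange points of each gene lie to one side of its blue points, from S100g with 72 h pools between -4.42 and -3.87 to Pmaip1 with 72 h pools between 2.57 and 3.12.

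Of 19 nutrient transporters measured, 3 were lower, the iron exporter Slc40a1, the zinc importer Slc39a4 and the glucose transporter Slc2a2, and 1 was higher. These are 15.8% and 5.26%, beside 11.0% and 5.78% over all genes. The median difference was 0.07, against -0.06 over all genes, and 11 of the 19 are bright genes. Slc39a8 and Slc39a10, zinc importers outside the list that were chosen after their values were seen, were called higher at 0.62 and 0.85. Other members of this family were not counted. Slc40a1, or ferroportin, which releases iron from enterocytes into the blood, stood at 0.01, -0.28 and 0.43 in the fed pools and -2.19, -2.08 and -1.91 in the 72 h pools, 4.32-fold lower at 72 h. The zinc importer Slc39a4 was at -0.22, -0.26 and 0.56 in the fed pools and -1.72, -1.64 and -1.67 in the 72 h pools, -1.70 ± 0.22 (SE, n = 3 and 3, 3.25-fold lower than fed, adjusted p = 0.000414). The 72 h pools of both lay close together and far from every fed pool.

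Slc2a2, the glucose transporter GLUT2, was at -0.19, 0.06 and 0.28 in the fed pools and between -1.01 and -0.65 in the 72 h pools, -0.94 ± 0.20 (SE, n = 3 and 3, 1.91-fold lower than fed, adjusted p = 0.00944), but was not called without fed replicate 3 (0.0503) and 72 h replicate 1 (0.0591). The fructose transporter Slc2a5 had 72 h pools at -1.52, -1.47 and -0.99, yet fed replicate 3 stood at -2.20 against 0.06 and 0.34 in the other fed pools, and its difference of -0.73 ± 0.58 did not pass (adjusted p = 0.481, and 0.0846 without that array). The taurine transporter Slc6a6 was higher (1.60 ± 0.31, adjusted p = 0.00795) with values on 1 fed and 2 72 h arrays, and its other 3 probes were called higher too, while without that fed array, replicate 3, this one had no fed value to fit. Beside the iron exporter, the ferritin heavy chain Fth1 was lower by both its probes, at -1.45 ± 0.21 for the brighter one (adjusted p = 0.00149), and the transferrin receptor Tfrc by 1 of its 3, at -1.32 ± 0.27 (adjusted p = 0.00708, and 0.0783 without fed replicate 3).

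Digestive enzymes of the brush border gave few calls. Of 10 measured, 9 of them bright genes, 2 were lower and 1 higher (20.0% lower, beside 22.9% among the bright genes), and the median difference was 0.21. Neither of the lower ones was called without fed replicate 3 or without 72 h replicate 1. The peptidase Dpp4 differed by -0.68 ± 0.19 (adjusted p = 0.0378) and was not called without fed replicate 1 (0.0656), fed replicate 3 (0.142), 72 h replicate 1 (0.132), 72 h replicate 2 (0.11) and 72 h replicate 3 (0.0826). Lct, the lactase, had a value on 1 fed and 1 72 h array alone (-1.11 ± 0.29, adjusted p = 0.0417), so that its test has no spread within either group and borrows that of the other times and probes, and it kept its call in 1 of the 6 fits that left out an array. Of the 268 listed genes called, 4 had a value on 1 array of a group: Lct, Slc6a6, Acadvl and Gsta4. Anpep, aminopeptidase N, was at -0.81, -0.03 and -2.87 in the fed pools and 0.09, 0.04 and 0.05 in the 72 h pools and was not called (1.30 ± 0.78, adjusted p = 0.329, and 0.48 with 0.781 without fed replicate 3). The absorbed-fat carrier Apoa4 did not pass either (-0.41 ± 0.28, adjusted p = 0.39). In the list for calcium and vitamin D, S100g was the 1 of 7 genes called, and the vitamin D receptor Vdr was at -0.11 ± 0.32 (adjusted p = 0.867) by its brightest probe. Its 2 other probes gave 0.86 (adjusted p = 0.066) and 0.62 (0.0869), with the 72 h pools above the fed pools in both.

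In fuel metabolism, Pdk4 and Pck1 rose. Pdk4, the kinase that shuts pyruvate dehydrogenase, was at -0.24, -0.25 and -0.08 in the fed pools and 2.37, 2.18 and 1.91 in the 72 h pools, 2.35 ± 0.18 (SE, n = 3 and 3, 5.1-fold higher than fed, adjusted p = 5.41e-06). Pck1, the phosphoenolpyruvate carboxykinase of gluconeogenesis, was at -0.33, -0.32 and 0.13 in the fed pools and 2.72, 2.24 and 1.94 in the 72 h pools, 2.47 ± 0.25 (SE, n = 3 and 3, 5.54-fold higher than fed, adjusted p = 9.98e-05). In both genes the lowest 72 h pool stood far above the highest fed pool.

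Of 32 genes of fatty-acid oxidation and ketogenesis, 10 were lower and 3 higher, with a median of -0.17. The 31.2% lower stand beside 11.0% over all genes and 22.9% among the bright genes, which hold 22 of the 32. Cpt2, which finishes the transfer of fatty acids into mitochondria, was at -0.12, 0.21 and 0.45 in the fed pools and -1.88, -1.28 and -1.83 in the 72 h pools, -1.84 ± 0.21 (SE, n = 3 and 3, 3.59-fold lower than fed, adjusted p = 0.000261). Oxct1, which lets a tissue burn ketone bodies, was at -1.41 ± 0.23 at its brightest probe (adjusted p = 0.00193). Etfa, an electron carrier of beta-oxidation, and the dehydrogenases Ehhadh and Acadl also fell, with differences from -1.22 to -0.96, and Acadl was not called without 72 h replicate 1 (0.0552) and 72 h replicate 3 (0.0594). Acadvl, another such dehydrogenase, was called higher (2.14 ± 0.42), on 1 fed and 2 72 h arrays and so with no spread among fed arrays, and without that fed array, replicate 3, it had no fed value to fit, while the receptor Ppara, which drives such genes in fasting liver, gave 0.39 ± 0.25 (adjusted p = 0.362). The count was 10 lower and 1 higher without fed replicate 3 and 4 and 2 without 72 h replicate 1.

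On the side of lipid handling, 4 of 24 genes were higher and 2 lower (16.7% and 8.33%, beside 5.78% and 11.0% over all genes). The fatty-acid transporter Cd36 was at -0.21 and -0.38 in the 2 fed pools with a value and 1.06, 1.01 and 0.89 in the 72 h pools, 1.28 ± 0.20 (SE, n = 2 and 3, 2.43-fold higher than fed, adjusted p = 0.00202). Pnpla2, the triglyceride lipase ATGL, had its brightest probe at -0.27, -0.13 and -0.65 in the fed pools and 2.15, 2.16 and 1.49 in the 72 h pools, 2.28 ± 0.25 (SE, n = 3 and 3, 4.87-fold higher than fed, adjusted p = 0.000159), but its other probe did not differ by the test (-0.08, adjusted p = 0.798). Cholesterol synthesis had 3 of 22 genes lower and 1 higher (13.6% and 4.55%, near the 11.0% and 5.78% over all genes). Insig1, a sterol-regulated gene that restrains this pathway, was the clearest at -1.45 ± 0.21 (adjusted p = 0.000928).

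Of 31 genes of glycolysis and gluconeogenesis, 9 were lower and Pck1 alone was higher, with a median of -0.37 (29.0% lower, beside 22.9% among the bright genes, which hold 20 of the 31). Ldha, the lactate dehydrogenase of muscle type, was at -0.18 and -0.19 in the 2 fed pools with a value and -1.72, -0.96 and -1.78 in the 72 h pools, -1.30 ± 0.24 (SE, n = 2 and 3, 2.46-fold lower than fed, adjusted p = 0.0039). Gpd1, which makes glycerol phosphate, was at -0.21, 0.04 and 0.26 in the fed pools and -1.43, -1.11 and -1.37 in the 72 h pools, -1.33 ± 0.16 (SE, n = 3 and 3, 2.52-fold lower than fed, adjusted p = 0.000316). Tpi1, Pgam1, Pfkp and Ugp2 were lower too, by differences from -1.27 to -1.01, and second probes of Ldha and Pfkp were not called. Tpi1 was not called without fed replicate 3 (0.0542) and 72 h replicate 1 (0.058), Pgam1 without 72 h replicate 1 (0.0902), Pfkp without 72 h replicate 2 (0.0603) and 72 h replicate 3 (0.14) and Ugp2 without fed replicate 3 (0.0624) and 72 h replicate 1 (0.0809). In the citric-acid cycle, 6 of 21 genes were lower and 0 higher (28.6%, beside 22.9% among the bright genes, to which 20 of the 21 belong), with Suclg1 the lowest at -1.17 ± 0.18. Without 72 h replicate 1, 4 genes of the first list and 3 of the second were lower, and without fed replicate 3, 6 and 3 were.

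Of all lists drawn, the respiratory chain had the largest share of lower genes in the ratios, though not in Cy3 alone, where antigen presentation had 8 of 15 lower and the chain 29 of 67. Of the 67 members measured, 33 were lower and 0 higher, 49.3% beside 11.0% over all genes and 22.9% among the bright genes, which hold 58 of the 67. The median difference was -0.78. The medians of the list were 0.15, -0.07 and 0.10 in the fed pools and -0.70, -0.48 and -0.78 in the 72 h pools, so that the groups stood apart also at this level. Cycs, cytochrome c, was the lowest member, at -0.22 and 0.21 in the 2 fed pools with a value and -1.79, -1.73 and -1.86 in the 72 h pools, -1.79 ± 0.22 (SE, n = 2 and 3, 3.45-fold lower than fed, adjusted p = 0.00042). Atp5md and Atp5k, small subunits of the ATP synthase, were at -1.73 ± 0.16 and -1.58 ± 0.20, and Atp5j of the same complex at -1.55 ± 0.20. Ndufc1 of complex I was at -1.57 ± 0.22 by its brightest probe and was called lower by its second one.

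The lower genes were spread over the complexes, as the plot of the chain shows. They were 14 of the 31 genes listed under complex I, which takes electrons from NADH, and 4 of 5 in complex III. In complex IV, which passes electrons to oxygen, 6 of 11 were lower, and in the ATP synthase 8 of 15. The medians were -0.76, -0.94, -0.68 and -1.01 in this order. The 31 include the assembly factors Ndufaf1, Ndufaf2, Ndufaf3, Ndufaf4 and Ndufaf5, which are not subunits of the complex. These factors were not called, with differences from -0.61 to -0.26, and they also count in the whole list. In complex II, which is shared with the citric-acid cycle, 0 of 4 were called by limma (0 also at an unadjusted p under 0.05, median -0.25), and Sdhb, Sdhc and Sdhd had fed replicate 3 at -1.67, -1.38 and -0.72, below both other fed pools and all 72 h pools. Without that array they were at -0.97, -0.48 and -1.0, with adjusted p of 0.458, 0.447 and 0.232, and Sdhd had an unadjusted p of 0.045. The list had 23 lower genes without fed replicate 3 and 21 without 72 h replicate 1. Cytosolic ribosomal proteins, as bright as the chain with 52 of 61 genes among the bright ones, had 2 lower and 0 higher genes (3.28% lower, median -0.25). The size of this contrast depends on the scaling: with arrays centred on their medians, 25 ribosomal proteins and 42 members of the chain were lower. With loess within arrays the counts were 2 and 32, and in Cy3 alone 1 and 29.

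**Figure D3:**
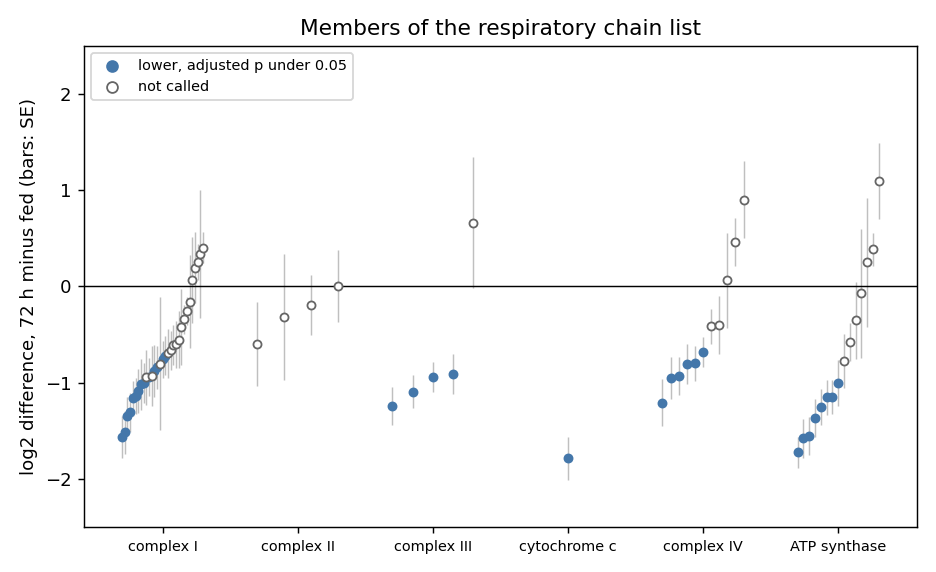
Difference between 72 h and fed (log2, vertical axis; bars are SE) of each of the 67 measured members of the respiratory chain list, grouped by complex, with genes called lower filled and the others open. Filled points reach down to -1.79 (Cycs) and occur in all groups but complex II, and no point above 0 is filled. The complex I group includes assembly factors, which are not subunits.

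Of 72 genes of mitochondrial ribosomes and protein import, 33 of them bright, 22 were lower and 1 higher (30.6% lower, median -0.47), led by the import chaperone Timm8b (-1.49 ± 0.23, with a second probe not called) and the ribosomal proteins Mrpl36 (-1.34 ± 0.20), Mrpl24, Mrpl51 and Mrpl15. The 1 higher gene was Mrps25, whose probes disagree as given above. Hspe1, the small mitochondrial chaperonin, was at -0.05, -0.19 and 0.23 in the fed pools and -1.89, -1.55 and -1.93 in the 72 h pools, -1.79 ± 0.19 (SE, n = 3 and 3, 3.45-fold lower than fed, adjusted p = 0.000121). The list had 14 lower genes without fed replicate 3 and 12 without 72 h replicate 1. Of 60 chaperone genes in all, 8 were lower and 4 higher (13.3% and 6.67%, near the 11.0% and 5.78% over all genes, median -0.18). None of the 4, Canx, Dnajb2, Hspb8 and Hspg2, was called by limma without fed replicate 3 (3 genes of the list rose at an unadjusted p under 0.05) or without 72 h replicate 1 (6 did). Hspg2, a proteoglycan of the matrix, came into the list by its name. The lower genes were 6 and 5 in these fits.

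Of 42 genes of amino-acid metabolism, 4 were higher and 6 lower (9.52% and 14.3%, beside 5.78% and 11.0% over all genes). Glul, glutamine synthetase, was at -0.27, -0.17 and 0.18 in the fed pools and 1.56, 1.74 and 1.15 in the 72 h pools, 1.57 ± 0.19 (SE, n = 3 and 3, 2.97-fold higher than fed, adjusted p = 0.000306), with its second probe called higher as well. Oat, which interconverts ornithine and a precursor of proline and glutamate, was at -0.24, -0.39 and 0.35 in the fed pools and -2.30, -1.74 and -1.93 in the 72 h pools, -1.90 ± 0.21 (SE, n = 3 and 3, 3.73-fold lower than fed, adjusted p = 0.00026). Mat2a, which makes S-adenosylmethionine, was also lower (-1.61 ± 0.22, adjusted p = 0.000659). In polyamine synthesis the key enzyme Odc1 was higher (0.96 ± 0.24, adjusted p = 0.0192, not called without fed replicate 1 (0.0722), 72 h replicate 1 (0.121) and 72 h replicate 3 (0.0715)), whereas Azin1 and Oaz1, its antizyme inhibitor and antizyme, were lower (-1.82 ± 0.30 and -1.13 ± 0.18) and called without each array in turn. Asns, a marker of amino-acid shortage, gave -0.24 ± 0.22 (adjusted p = 0.543).

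Of 45 proteasome genes, 15 were lower and 1 higher (33.3% lower, median -0.50, beside 11.0% over all genes and 22.9% among the bright genes, which hold 22 of the 45), with 10 lower without fed replicate 3 and 4 without 72 h replicate 1. Psme2, an interferon-induced activator, was at 0.36, 0.01 and 0.98 in the fed pools and -1.79, -1.27 and -1.72 in the 72 h pools, -2.04 ± 0.26 (SE, n = 3 and 3, 4.12-fold lower than fed, adjusted p = 0.000415). Among the subunits, Psma7 and Psmc4 were at -1.09 ± 0.22 and -1.07 ± 0.19, both called without each array in turn, with a second probe of Psma7 not called. In the list for lysosome and autophagy, 2 of 39 genes were lower and 1 higher, 18 of the 39 are bright genes, and the median was 0.00. The difference between the 2 lists was not tested. Ctsb, cathepsin B, was lower (-1.29 ± 0.18, adjusted p = 0.000882) by its brightest of 3 probes, while Map1lc3b and Sqstm1, both markers of autophagy, gave 0.11 ± 0.21 and 0.42 ± 0.22 and were not called. A second probe of Sqstm1 was higher (1.81, adjusted p = 0.0171). Of 23 aminoacyl-tRNA synthetase genes, 0 were called by limma in either direction, with 5 at an unadjusted p under 0.05.

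Immune genes of the gut were lower in 2 lists, read against 11.0% over all genes and 22.9% among the bright genes. Antigen presentation had 7 of 15 genes lower and 0 higher (46.7%, median -0.61), and the interferon response 12 of 28 lower and 1 higher (42.9%, median -0.49), with 9 members of the first list and 8 of the second among the bright genes. H2-Ab1, a chain of the class II molecules that show antigen to helper T cells, was at -0.13, -0.53 and -0.09 in the fed pools and -2.14, -1.82 and -2.08 in the 72 h pools, -1.76 ± 0.20 (SE, n = 3 and 3, 3.39-fold lower than fed, adjusted p = 0.000188). B2m, the common light chain of class I molecules, was at -0.71, -0.62 and 0.13 in the fed pools and -2.10, -1.87 and -2.08 in the 72 h pools, -1.62 ± 0.22 (SE, n = 3 and 3, 3.07-fold lower than fed, adjusted p = 0.000561). In neither gene did a 72 h pool reach a fed pool. Psmb8, a subunit of the immunoproteasome (-1.43 ± 0.33), Cd74, the invariant chain (-1.20 ± 0.34), Tap1, the peptide transporter (-0.98 ± 0.27), and H2-T23, a nonclassical class I molecule (-0.97 ± 0.23), were lower by the fit of all arrays. Psmb8 was not called without fed replicate 1 (0.0698), 72 h replicate 1 (0.0681) and 72 h replicate 3 (0.0567), Cd74 without fed replicate 1 (0.111), fed replicate 2 (0.0813), fed replicate 3 (0.0967), 72 h replicate 1 (0.17) and 72 h replicate 3 (0.106), Tap1 without fed replicate 3 (0.136), 72 h replicate 1 (0.139), 72 h replicate 2 (0.0806) and 72 h replicate 3 (0.0824) and H2-T23 without fed replicate 3 (0.0783) and 72 h replicate 1 (0.097). The list had 4 lower genes without fed replicate 3 and 3 without 72 h replicate 1. H2-Aa (0.07 ± 0.18) and H2-Eb1 (0.32 ± 0.17), other class II chains, were not called. The H2-Aa probe was dim, with a mean log2 intensity of 7.1 against 11.39 for that of Cd74, which limits what it can show.

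Among interferon-response genes, Isg15, a ubiquitin-like protein, was at 0.15, -0.07 and 0.76 in the fed pools and -1.47, -1.37 and -1.22 in the 72 h pools, -1.63 ± 0.20 (SE, n = 3 and 3, 3.1-fold lower than fed, adjusted p = 0.000315). Ifi47, a guanosine triphosphatase, was at -1.34 ± 0.22, and Ifitm3, which bars viruses from entering the cell, at -1.23 ± 0.23, both called without each array in turn. Irf1 was not called (-0.50 ± 0.34, adjusted p = 0.406), but its fed replicate 3, at -1.35, was far below the other fed pools, and without that array it was (adjusted p = 0.0125). The receptor chain Ifngr1 was the 1 gene called higher (1.14 ± 0.30, not called without fed replicate 3 (0.133), 72 h replicate 1 (0.101), 72 h replicate 2 (0.0965) and 72 h replicate 3 (0.0581)). The list had 9 lower genes without fed replicate 3 and 7 without 72 h replicate 1.

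Markers of immune cells stand beside these values as follows. Over all genes 11.0% were lower, and 20.0% of the T-cell and of the B and plasma-cell markers were. Macrophage and myeloid markers had a median of -0.46 with 0 of 10 called by limma and 4 at an unadjusted p under 0.05, and their median log ratios were between -0.13 and 0.08 in the fed pools and between -0.43 and -0.33 in the 72 h pools. T-cell markers had 2 of 10 lower, Cd247 and Ptprc (median -0.01), of which neither was called without fed replicate 3 (0.0668 and 0.169) or without 72 h replicate 1 (0.119 and 0.0914) and each was called in 1 of the 6 fits that left out an array, with Cd3e at -0.06 ± 0.16 and not called. B and plasma-cell markers had 2 of 10 lower, Jchain and Ms4a1 (Ms4a2 in the fed files, not called without fed replicate 2 (0.0514) and 72 h replicate 2 (0.0745)), while Cd79a, part of the B-cell receptor, gave -0.08 ± 0.18 (adjusted p = 0.833). The part of these cells in the fall of immune genes was not tested.

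Genes that interferons turn on often carry a response element with a core of GAAA, any 2 bases and GAAA close to their start. Of the 19 genes lower in these 2 lists, 13 had a promoter window in the RefSeq table of the mouse build GRCm38.p6, which gives 250 bases before and 50 bases after a gene's start, and 6 of the 13 windows held the letters on either strand, among them those of B2m, H2-T23, Isg15 and Ifitm3. Of all 27025 genes with a window, 1079 (3.99%) held them. Members of the lists held them whether called lower or not: 11 of the 23 interferon-response genes with a window held them (47.8%) and 4 of the 8 lower ones, and in antigen presentation 3 of 12 and 2 of 5. The element was 1 of 10 kinds of site searched after the values were seen, and a match is a stretch of letters, not a bound site. The 4 windows are printed from 5′ to 3′ on the strand of the gene, with the match in capitals (as TTTC, 2 bases and TTTC where it lies on the other strand), for B2m (chr2:122147437-122147736, plus strand), H2-T23 (chr17:36032652-36032951, minus strand), Isg15 (chr4:156200769-156201068, minus strand) and Ifitm3 (chr7:141010695-141010994, minus strand). Isg15 holds 3 matches that overlap and Ifitm3 holds 2 just inside the gene.
B2m: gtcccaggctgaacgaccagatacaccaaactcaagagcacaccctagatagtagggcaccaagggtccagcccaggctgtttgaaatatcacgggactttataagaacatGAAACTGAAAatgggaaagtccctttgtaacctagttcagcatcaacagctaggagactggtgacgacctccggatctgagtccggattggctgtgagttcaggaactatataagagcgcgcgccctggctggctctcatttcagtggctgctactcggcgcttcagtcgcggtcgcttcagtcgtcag
H2-T23: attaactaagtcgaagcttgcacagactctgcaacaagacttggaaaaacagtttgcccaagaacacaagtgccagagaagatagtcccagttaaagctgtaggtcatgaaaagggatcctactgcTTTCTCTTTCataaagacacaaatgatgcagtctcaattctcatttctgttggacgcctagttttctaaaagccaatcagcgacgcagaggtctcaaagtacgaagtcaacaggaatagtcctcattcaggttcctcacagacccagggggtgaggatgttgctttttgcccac
Isg15: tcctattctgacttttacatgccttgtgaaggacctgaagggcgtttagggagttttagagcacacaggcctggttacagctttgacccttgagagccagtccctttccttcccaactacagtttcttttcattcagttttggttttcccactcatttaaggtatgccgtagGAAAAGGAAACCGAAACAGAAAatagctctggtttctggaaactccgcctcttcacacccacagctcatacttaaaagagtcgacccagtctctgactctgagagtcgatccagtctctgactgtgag
Ifitm3: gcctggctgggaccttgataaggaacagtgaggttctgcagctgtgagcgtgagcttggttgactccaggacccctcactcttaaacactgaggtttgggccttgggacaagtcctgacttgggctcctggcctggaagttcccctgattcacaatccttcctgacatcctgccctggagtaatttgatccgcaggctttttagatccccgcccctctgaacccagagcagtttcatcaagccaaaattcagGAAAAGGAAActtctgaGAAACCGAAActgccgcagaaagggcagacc

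Death and survival genes moved in both directions. Of 36 apoptosis genes, 6 were higher and 6 lower (16.7% each, beside 5.78% and 11.0% over all genes). Beside Pmaip1, the death-promoting Bok was higher, at 0.23, 0.02 and 0.12 in the fed pools and 1.31, 1.67 and 1.15 in the 72 h pools, 1.25 ± 0.21 (SE, n = 3 and 3, 2.38-fold higher than fed, adjusted p = 0.00191). The survival gene Mcl1, whose product Noxa binds, was at 0.14, -0.08 and 0.15 in the fed pools and 0.68, 0.78 and 0.88 in the 72 h pools, 0.71 ± 0.14 (SE, n = 3 and 3, 1.63-fold higher than fed, adjusted p = 0.00656), though a second probe was not called (-0.33, adjusted p = 0.277). In neither gene did the pools overlap. Among the caspases, Casp6, which takes part in executing cell death, was lower (-1.84 ± 0.19, adjusted p = 0.000111). Casp1, which matures interleukin 1, was at 0.01, -0.54 and 0.42 in the fed pools and -2.29, -1.71 and -2.04 in the 72 h pools, -1.97 ± 0.23 (SE, n = 3 and 3, 3.93-fold lower than fed, adjusted p = 0.000366), and its adaptor Pycard was lower too, as given above. Bcl2l1 was higher at its brightest of 3 probes (1.08 ± 0.32, adjusted p = 0.0498) and was not called without fed replicate 1 (0.0765), fed replicate 3 (0.131), 72 h replicate 1 (0.277), 72 h replicate 2 (0.119) and 72 h replicate 3 (0.0617), and Bcl2 was not called (0.70 ± 0.30). Both without fed replicate 3 and without 72 h replicate 1, 4 genes were higher and 4 lower.

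In the list of cell-cycle inhibitors and p53 targets, 5 of 18 genes were higher and 3 lower (27.8% and 16.7%, beside 5.78% and 11.0% over all genes). Cdkn1a, the inhibitor p21, was at -0.42, -0.16 and 0.22 in the fed pools and 1.59, 1.60 and 0.74 in the 72 h pools, 1.44 ± 0.26 (SE, n = 3 and 3, 2.7-fold higher than fed, adjusted p = 0.00285). Ccng2, a cyclin of arrested cells, went the other way, at 0.18, -0.07 and 0.18 in the fed pools and -1.66, -1.92 and -1.73 in the 72 h pools, -1.87 ± 0.15 (SE, n = 3 and 3, 3.65-fold lower than fed, adjusted p = 9.6e-06), and Ccng1 was lower by its brighter probe (-1.10 ± 0.18). Of 68 genes of cell cycle and replication, 14 were lower and 3 higher (20.6% lower, median -0.28), although 8 are bright genes. Pcna, the sliding clamp of replication, was at -0.29, -0.53 and 0.24 in the fed pools and -1.11, -1.05 and -1.51 in the 72 h pools, -1.03 ± 0.21 (SE, n = 3 and 3, 2.04-fold lower than fed, adjusted p = 0.00779), and Cdk1, the kinase that starts mitosis, was at -0.98 ± 0.18, both called without each array in turn. Ccnd1, which starts the cycle, was lower by its brighter probe (-1.23 ± 0.20), with the other not called. The proliferation markers Mki67 (-0.26 ± 0.18, adjusted p = 0.387) and Top2a (-0.30 ± 0.19, 0.353) were not called by their brightest probes. Their other probes had the opposite sign and were not called either, at 0.45 (adjusted p = 0.088) for Mki67 and at 0.10 and 0.41 (0.831 and 0.268) for Top2a. The list had 8 lower genes without fed replicate 3 and 6 without 72 h replicate 1, and none of its 3 higher ones, Prim2, Chek1 and Mcm2, was called by limma in either fit (3 genes rose at an unadjusted p under 0.05 in each).

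Of genes that glucocorticoids induce, Fkbp5, Sgk1 and Klf9 were higher and Tsc22d3 was not called. In the list for hormone and stress transcription, 11 of 58 genes were higher and 3 lower (19.0% higher, beside 5.78% over all genes and 11.7% among the bright genes, which hold 20 of the 58). Fkbp5, a chaperone of the glucocorticoid receptor and one of its targets, was at -0.34, -0.18 and 0.51 in the fed pools and 2.18, 2.55 and 2.33 in the 72 h pools, 2.36 ± 0.27 (SE, n = 3 and 3, 5.12-fold higher than fed, adjusted p = 0.000188). Sgk1, a kinase induced by the same hormones, was at -0.48, -0.27 and 0.16 in the fed pools and 1.58, 1.61 and 1.36 in the 72 h pools, 1.72 ± 0.17 (SE, n = 3 and 3, 3.29-fold higher than fed, adjusted p = 9.98e-05). Ddit4, an inhibitor of mTOR signalling, was at 0.42, 0.16 and 0.53 in the fed pools and 2.74, 2.69 and 1.98 in the 72 h pools, 2.10 ± 0.25 (SE, n = 3 and 3, 4.29-fold higher than fed, adjusted p = 0.000315). In all 3 genes each 72 h pool lay above each fed pool, and the call held without each array in turn.

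Klf9, a transcription factor that glucocorticoids induce, was higher as well (1.49 ± 0.23, adjusted p = 0.00143). Tsc22d3, another such target, was not called at 72 h (0.51 ± 0.26, adjusted p = 0.235). Rxra and Creb3, also in the list, had large differences (2.41 ± 0.50 and 2.11 ± 0.46) with fed replicate 3 at -0.96 and -0.28, below both other fed pools, and Creb3 was not called without fed replicate 3 (0.0609) and 72 h replicate 1 (0.0614). Nr1h3, the oxysterol receptor, was lower (-1.09 ± 0.16, adjusted p = 0.000969). Without fed replicate 3, 8 genes of the list were higher, and without 72 h replicate 1, 6 were.

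The palindrome that the glucocorticoid receptor binds, AGAACA, any 3 bases and TGTTCT, occurred in the windows of 3 of all 27025 genes. Of the 47 genes of this list with a window, 10 of them higher, Sgk1 alone held it. A single match gives no share to compare, and the site was 1 of 10 kinds searched after the values were seen. It is a stretch of letters, not a bound site. The match of Sgk1 is shown for its rarity, from 1 of the 6 windows the table gives for this gene, chr10:21993640-21993939, plus strand, with the palindrome in capitals.
Sgk1: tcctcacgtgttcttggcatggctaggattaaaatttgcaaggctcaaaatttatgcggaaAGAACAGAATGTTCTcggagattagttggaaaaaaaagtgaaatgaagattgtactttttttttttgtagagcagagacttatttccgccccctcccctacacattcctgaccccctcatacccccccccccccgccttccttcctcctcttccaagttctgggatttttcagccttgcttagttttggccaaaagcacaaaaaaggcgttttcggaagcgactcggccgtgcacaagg

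Mt1, a metallothionein that binds zinc and is induced by metals and glucocorticoids, was at -0.73, -0.87 and 0.49 in the fed pools and 1.87, 2.14 and 1.83 in the 72 h pools, 2.32 ± 0.28 (SE, n = 3 and 3, 4.99-fold higher than fed, adjusted p = 0.000414). Hmox1, the heme-degrading enzyme, was higher too (1.05 ± 0.18, adjusted p = 0.00226). In the list of metallothioneins and antioxidants these 2 genes were higher and 8 of 23 lower (34.8%, with 16 bright genes in the list), among them the glutathione peroxidases Gpx1 (-1.39 ± 0.24) and Gpx2 (-1.42 ± 0.32), and Gpx2 was not called without fed replicate 1 (0.0507) and 72 h replicate 1 (0.0704). Of 24 genes of xenobiotic and retinoid metabolism, 7 were lower and 2 higher (29.2% lower, with 16 bright genes). The shares lower in these 2 lists stand beside 11.0% over all genes and 22.9% among the bright genes. Their shares higher, 8.70% and 8.33%, stand beside 5.78% and 11.7%. Gstp1, a glutathione transferase whose probe the files name Gstp2 and whose near-identical neighbour could share the signal, was at -1.69 ± 0.23 (adjusted p = 0.000845) and Aldh1a1, which makes retinoic acid, at -1.40 ± 0.18 (adjusted p = 0.00083, n = 3 and 2). Both lists had 5 lower genes without fed replicate 3.

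In NF-κB and cytokine signalling, 7 of 33 genes were higher and 2 lower (21.2% and 6.06%, beside 5.78% and 11.0% over all genes). Nfkbia, the inhibitor IκBα, was the clearest, at 0.19, 0.15 and 0.37 in the fed pools and 2.80 and 1.93 in the 2 72 h pools with a value, 2.12 ± 0.25 (SE, n = 3 and 2, 4.36-fold higher than fed, adjusted p = 0.000316), called without each array in turn. Nfkb1, a subunit of NF-κB itself, was lower (-0.91 ± 0.20, adjusted p = 0.00974, and 0.0632 without 72 h replicate 1). The list had 2 higher genes without fed replicate 3 and 2 without 72 h replicate 1. Clock genes had 2 of 12 higher and 1 lower (16.7% and 8.33%). Arntl, the core activator BMAL1, was not well above background on any fed array and was at least 2.67-fold higher at 72 h (adjusted p = 0.000159), and Cry2, a repressor of the clock, was at 1.15 ± 0.18 (adjusted p = 0.00151).

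**Figure D4:**
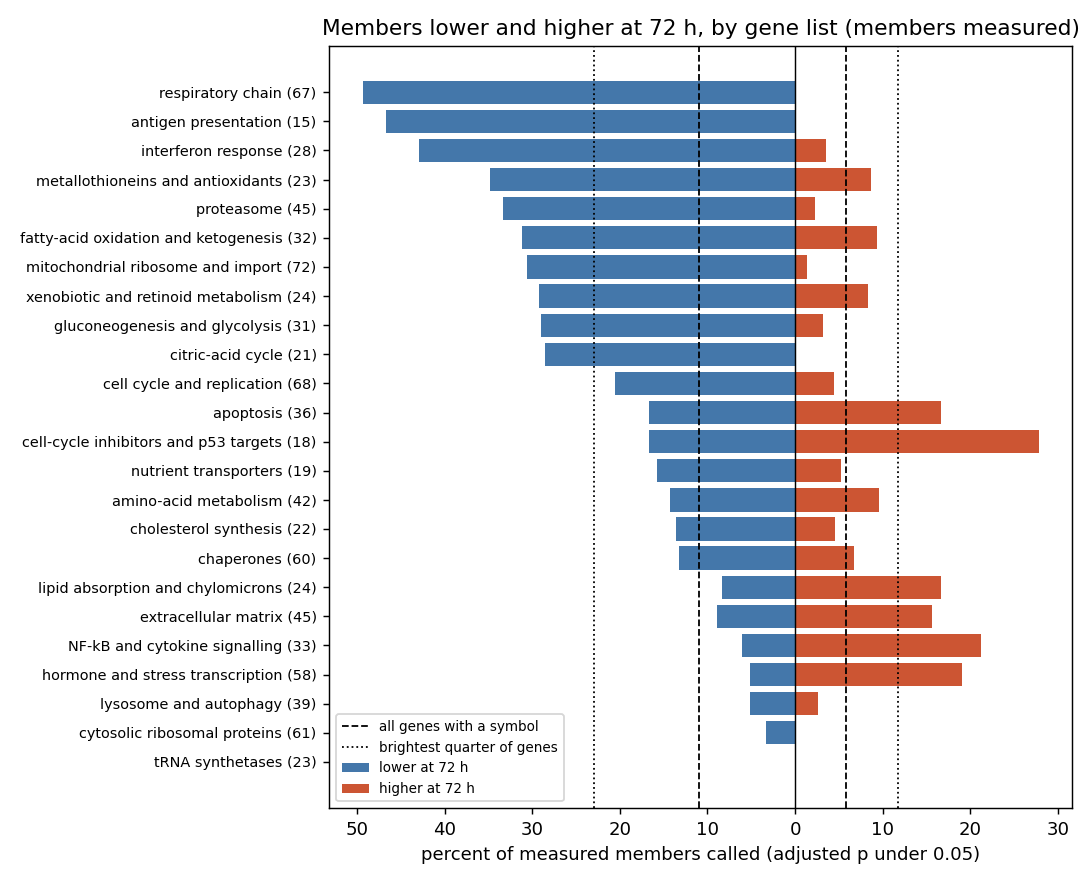
Percent of the measured members of 24 gene lists (number of members in brackets) that were lower (blue, to the left) or higher (orange, to the right) at 72 h, with dashed lines at the share over all genes with a symbol (11.0% lower, 5.78% higher) and dotted lines at the share among the 2008 brightest genes (22.9% and 11.7%). The respiratory chain reaches 49.3% lower with no member higher, while hormone and stress transcription has 19.0% higher.

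Other cell types of the wall gave few calls, and their counts stand beside 5.78% higher and 11.0% lower over all genes. Of 16 smooth-muscle markers, 3 were higher and 1 lower, but Acta2 (0.16 ± 0.48), Actg2 (-0.14 ± 0.39) and Cnn1 (0.04 ± 0.15), its abundant contractile genes, were not called, and the list had 0 higher genes by limma without fed replicate 3 and 0 without 72 h replicate 1, with 3 and 4 at an unadjusted p under 0.05. Among 6 goblet-cell markers, Agr2, a disulfide isomerase needed for mucin, was lower at 0.05, -0.35 and -0.30 in the fed pools and -1.87, -1.36 and -1.71 in the 72 h pools, -1.45 ± 0.24 (SE, n = 3 and 3, 2.73-fold lower than fed, adjusted p = 0.00186), and the other 5 were not called. Of 8 endothelial markers 1 was lower, Cd34, not called without fed replicate 1 (0.0921), fed replicate 2 (0.0943) and 72 h replicate 1 (0.165), and of 7 gut hormone genes 1 was lower, Nts, not called without fed replicate 3 (0.0548). Of 11 enterocyte markers, the keratin Krt18 was higher (1.08, adjusted p = 0.0317, called in 1 of the 6 fits that left out an array, with 0.125 without fed replicate 3) and Krt8 lower (-0.73, adjusted p = 0.00963, and 0.0593 without 72 h replicate 1), and villin, Vil1, gave -0.30 ± 0.15 (adjusted p = 0.23). Crypt and stem-cell markers had 1 of 8 called, Tcf7l2, higher by 1.99 ± 0.32 (adjusted p = 0.00172). None of the mast-cell, neuronal, adipose, erythroid, Paneth-cell or exocrine-pancreas markers, of which 4, 5, 3, 5, 1 and 1 were measured, was called by limma, and 1 of them, an erythroid marker, had an unadjusted p under 0.05. In the extracellular matrix 7 of 45 genes were higher and 4 lower (15.6% and 8.89%, beside 5.78% and 11.0% over all genes). Timp3, an inhibitor of matrix proteases, was at 1.12 ± 0.21 and the matrix protein Sparc at -1.24 ± 0.19, both called without each array in turn. Of this list, 4 were higher and 2 lower without fed replicate 3.

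To find which genes moved late, the 72 h pools were also tested against the pools fasted for 12 h and for 24 h. Of 8031 genes, 300 (3.74%) were called against fed and differed in the same direction from both earlier times, and among probes 351 of those higher and 187 of those lower did. The comparisons share the 72 h pools and are not independent. S100g was at -0.44, -0.74 and -0.25 at 12 h and at -1.63, -1.64 and -1.89 at 24 h, and its 72 h level differed by -3.67 (adjusted p = 4.8e-07) from the first and by -2.43 (adjusted p = 4.34e-05) from the second. Jchain stood at -2.41 (adjusted p = 0.000268) against 24 h and Slc40a1 at -1.39 (adjusted p = 0.00158). For all 3, every 72 h pool lay below every pool of the first day of fasting.

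Cpt2 gave -0.26 at 24 h against fed (adjusted p = 0.453), and its 72 h pools differed from 24 h by -1.59 (adjusted p = 0.000957). Among the rises, Pmaip1 was past 24 h by 1.93 (adjusted p = 0.000294), Ddit4 by 1.80 (adjusted p = 0.00126), Glul by 1.28 (adjusted p = 0.0015), Bok by 1.61 (adjusted p = 0.000683) and Cdkn1a by 1.07 (adjusted p = 0.0183). Mcl1 was lower than fed at 12 h and 24 h (-0.69 and -0.56, adjusted p = 0.0121 and 0.0278) and higher at 72 h, a turn of 1.26 (adjusted p = 0.000356) between 24 h and 72 h. By contrast, the 72 h level of Mt1 differed from that at 24 h by -0.15 (adjusted p = 0.778), that of Fkbp5 by 0.60 (adjusted p = 0.163) and that of Pck1 by 0.60 (adjusted p = 0.137), none of which passed. Pdk4 was higher at 12 h already (1.36, adjusted p = 0.00196) and rose further, by 0.74 (adjusted p = 0.0175) from 24 h. Median Cy5 intensities were 392 to 627 on the 12 h and 24 h arrays and 124 to 142 on the fed and 72 h arrays, and the part of this in the differences was not tested. The 12 h and 24 h arrays also have another scanner output format than the fed and 72 h arrays. In the comparisons with 12 h and 24 h, this cannot be told apart from the time of fasting. In Cy3 alone, 530 probes were past both times, beside the 538 from the log ratios, and how many of them are the same probes was not counted. From the log ratios, 108 were past both times without 72 h replicate 1 and 206 without 72 h replicate 3.

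**Figure D5:**
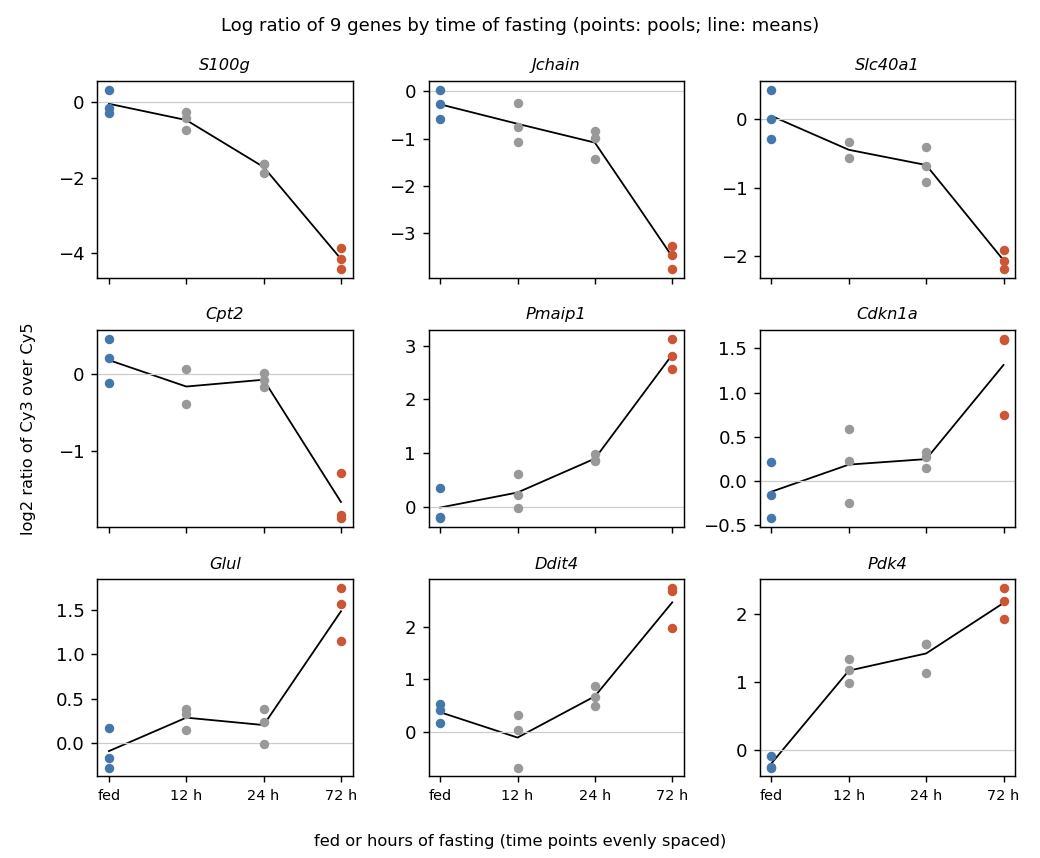
Log2 ratio of Cy3 over Cy5 (vertical axis, a scale of its own in each panel) of 9 genes in the fed pools (blue), the pools fasted for 12 h and 24 h (grey) and those fasted for 72 h (orange), with a line through the means. S100g, Jchain and Slc40a1 step down between 24 h and 72 h, Cpt2 is at or above -0.39 in the pools of 12 h and 24 h and at or below -1.28 in those of 72 h, and Pmaip1, Cdkn1a, Glul and Ddit4 have their main rise after 24 h, while Pdk4 rises from 12 h on.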

How the data were processed

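Arrays with 2 colours (Agilent) of 12 pools, 3 at each of 4 times, were read. The authors hybridised Cy3-labelled RNA of a pool against Cy5-labelled fed reference, and per the file headers the deposited intensities are the median spot signals and local backgrounds of Feature Extraction. The deposited log ratio of the same software is held as a score, because the decimal point of large cells had been moved in the files, and was put back before its use as an alternative; the deposited processed table is the same ratio with its sign turned and was not used. In limma 3.58.1 (R 4.3.3), normexp with an offset of 50 corrected the background, the 24 channels were quantile-normalized, and log2(Cy3/Cy5) was fitted with a mean for each time over all 12 arrays. The 72 h minus fed contrast was moderated (eBayes) and adjusted over the 20272 probes tested. From 21446 spots, 1075 control spots and 91 spots of retired probes were left out, which leaves 20280 probes, of which 10082 matched RefSeq genes, and outlier spots were left out of the fit. A gene was read at its brightest probe. The number of arrays limits the precision, and p-values measure the spread between pools. Lists of 28 pathways and 14 cell types were counted, and the text names genes among the 15 largest rises and 15 largest falls whose pools did not overlap, the core genes of each list and up to 5 further called members in each direction. The members and lists were chosen with earlier results of these data known. The method was tested on simulated data. Alternatives changed the arrays fitted, background, scaling, channel, filters and test. Promoters were searched on both strands for 10 kinds of site: the interferon, glucocorticoid, metal, sterol, cAMP and ERR elements, DR1, the E-box, the CCAAT box and the NRF1 site. Results of some genes are not reported here.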

Additional observations from a re-analysis of the deposited data

How the results depend on the processing

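The counts of 974 higher and 1176 lower probes became 1893 and 2112 when the fed and 72 h arrays were fitted alone, 1571 and 1800 with loess within arrays, with or without scaling of the averages, 896 and 1929 with median centring, 1307 and 1908 from the scanner's own log ratio, and 645 and 804 without moderation. Leaving out 1 array gave 354 to 773 higher and 478 to 1019 lower. The 538 probes past both earlier times became 108 to 389 without 1 of the 72 h arrays. Of the listed genes, 268 were called, 174 without moderation and 138 to 257 with 1 array left out. The cause was not tested, beyond the smaller number of arrays. Dnajb2 (-0.088) and Hexa (-0.013) turned their sign in Cy3 alone. The replicate numbers do not pair the samples: same-numbered fed and 72 h arrays correlated at -0.009, -0.067 and -0.073 in their deviations, and with the replicate block 772 probes were higher, 935 lower and 235 listed genes called. Of 195 called genes followed singly, 110 were called without each array in turn, 153 in Cy3 alone and 98 under every alternative. Outlier and saturated spots, the filter on dim probes and the background settings left the counts within 1.5 times. Scan date and slide were not run as blocks.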
